A study of Mus musculus with 12 samples.

Results

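The subject here is the oxygen by dexamethasone interaction in mouse liver, that is, the genes whose response to dexamethasone (DEX) at 7% O2 differed from their response at 21% O2. All 12 libraries of the series entered the comparison, (Hypoxia_DEX minus Hypoxia_PBS) minus (Normoxia_DEX minus Normoxia_PBS), on the log2 scale, and 12801 of 54838 genes reached 1 CPM (counts per library scaled to a common total) in at least 3 libraries and were tested. Livers came from C57BL/6J mice kept in air (21% O2) or in a chamber at 7% O2 for 24 h, then given an intraperitoneal injection of PBS or of DEX at 10 mg/kg and sampled 2 h later. The hypoxia animals went back to 7% O2 after the injection, and each of the 4 groups (Normoxia_PBS, Normoxia_DEX, Hypoxia_PBS, Hypoxia_DEX) held 3 biological replicates. The labels give no sex or age, and the mice were fed ad libitum, and their food intake under 7% O2 is not given. By its title the series asks how hypoxia reprograms what the glucocorticoid receptor does.

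DEX is a synthetic glucocorticoid. It binds the glucocorticoid receptor (Nr3c1), a ligand-activated transcription factor that raises some genes by binding DNA elements near them and lowers others, among them many inflammatory genes. In liver this receptor drives fasting metabolism, such as the release of glucose and the breakdown of amino acids. Low oxygen stabilises the hypoxia-inducible factors (HIFs), which raise a separate set of genes, and a few genes, Ddit4 among them, are known targets of both systems.

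Depth ran from 12464687 to 24715995 counts per library, and of the variance in the 1000 most variable genes 49.4% lay on a first component that split the oxygen levels and 33.7% on a second that split DEX from PBS. There Hypoxia_DEX-2 had a score of 9.73 (its replicates 21.59 and 21.55) and Hypoxia_PBS-1 a score of -6.34 (its replicates -24.22 and -21.56). Both lay nearer to the libraries of the other injection than their replicates did. Hypoxia_DEX-1 and Hypoxia_DEX-3 were closer to each other than any other replicates: the chi-square of their counts was 1.87 per gene, against 11.5 to 42.4 in the other replicate pairs, and 9.48% of genes lay beyond the 5% limit of sampling noise, against 24.2% to 45.4%. They differed by more than sampling noise and were kept as 2 libraries, but most results on called genes below are also given without Hypoxia_DEX-2 and Hypoxia_PBS-1 (the 10-library value) and with the counts of Hypoxia_DEX-1 and Hypoxia_DEX-3 added up as a single library (the summed value). Hypoxia_DEX-2 and Hypoxia_PBS-1 were picked by their place on the DEX component. Leaving them out therefore tends to widen the DEX difference in hypoxia by construction, and the 10-library values are no independent check. The receptor gene itself was not called: Nr3c1 had 74.7, 80.6 and 71.9 CPM in Normoxia_PBS, 68.7, 67.1 and 71.7 in Normoxia_DEX, 77.0, 82.7 and 87.5 in Hypoxia_PBS and 73.3, 70.7 and 70.4 in Hypoxia_DEX, with an interaction of -0.07, SE 0.10, edgeR adjusted p = 0.812.

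With edgeR's quasi-likelihood test, 174 genes (1.36% of those tested) had an adjusted p under 0.05 and are called below, against 1620 at an unadjusted p under 0.05. In 54 (0.422%) the DEX response was higher in hypoxia and in 120 (0.937%) it was lower. The difference was 2-fold or more in 84 of them, 25 higher and 59 lower. The same fit called 2272 genes (17.7%) for DEX against PBS in normoxia, 1207 up (9.43%) and 1065 down (8.32%), and 1849 (14.4%) in hypoxia, 966 up (7.55%) and 883 down (6.9%). These 2 responses are built from the libraries of the interaction, so they serve here only to sort the 174 genes and describe their shape.

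The commonest shape was a rise in normoxia that was weaker or missing in hypoxia, which took 97 of the 174 genes (55.7%). Their median DEX response was 1.34 on the log2 scale in normoxia and 0.29 in hypoxia, and 40 of them were still called up in hypoxia. The next was a fall in normoxia that was weaker or missing in hypoxia, with 37 genes, a median of -1.12 in normoxia and -0.07 in hypoxia, and 6 still called down in hypoxia. A rise called in hypoxia and larger there was seen in 10 genes (medians -0.13 and 0.71), a fall called in hypoxia and larger there in 13 (0.09 and -0.75), and in 17 genes the responses were called in opposite directions. Just inside the threshold lay Ddit3, at 1.45 with adjusted p = 0.0479 in edgeR, and Asph, at -0.49 with 0.0498, and just outside it Ugt2b5 at -0.57 and Taf1d at 0.62, both with 0.0514. In the plot of the DEX response at each oxygen level, the genes of weaker response lie toward the horizontal axis.

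**Figure D1:**
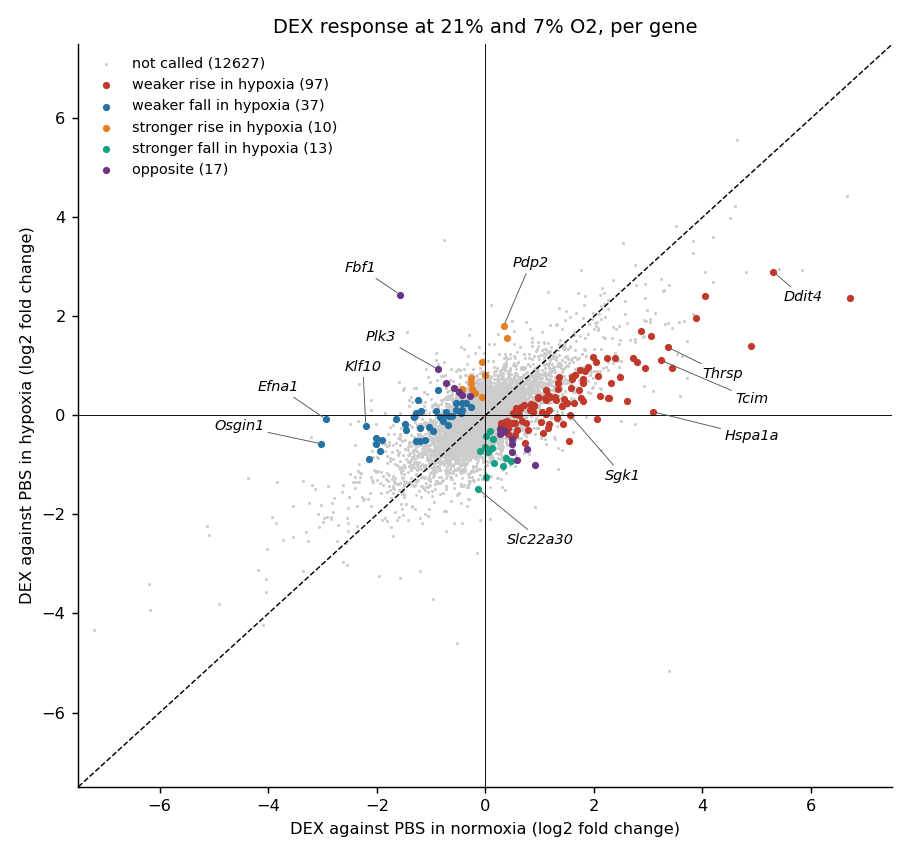
DEX against PBS (log2 fold change, edgeR) in normoxia on the horizontal and in hypoxia on the vertical axis for each of 12801 tested genes, of which 4 lie outside the axes. Coloured points are the 174 called genes by shape, the dashed line marks equal responses, and the 97 genes with a weaker rise in hypoxia lie to the right of it.

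Calls depended on which libraries entered. Without Hypoxia_DEX-2 and Hypoxia_PBS-1, 474 genes were called (3.73% of those tested; 159 higher, 315 lower), 150 of the 174 among them, and with Hypoxia_DEX-1 and Hypoxia_DEX-3 summed 71 (0.556%; 21 higher, 50 lower), all of them among the 174. The weaker rise was the commonest shape in both, with 167 of 474 and 39 of 71 genes, but without those 2 libraries the stronger falls grew to 126 and the stronger rises to 68, against 74 weaker falls. All 174 genes kept the sign of their interaction in all 20 alternative settings that measured them, and 44 were called in every one. Among the 44 were Acacb, Map3k13, Midn, Mnt, Exph5, Lyve1, Gadd45g, Tcim, Pdp2, Plk3, F11 and Srxn1, which are described below. The settings reuse the counts by which the 174 genes were chosen, so kept signs and calls are no independent support. Of the 174, 169 were protein coding, out of 11770 protein-coding genes tested, and 3 were lincRNAs, out of 188.

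**Figure D2:**
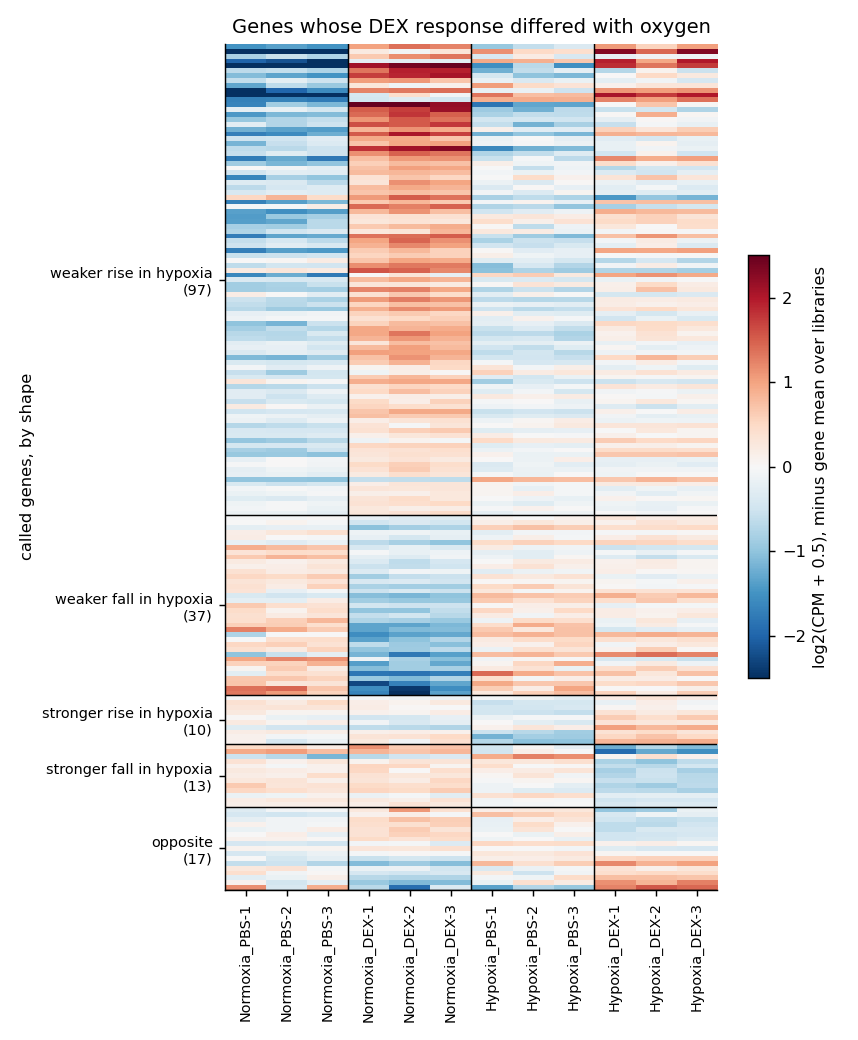
Expression of the 174 called genes (rows, by shape and then by size of the interaction) in the 12 libraries (columns), as log2(CPM + 0.5) minus the gene's mean over the libraries, in colour. In the top block of 97 genes the Normoxia_DEX libraries are the reddest, and in the block of 37 genes below it they are the bluest.

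In the 97 genes with a weaker rise, the median level was 19.6 CPM in Normoxia_PBS, 49.9 in Normoxia_DEX, 29.9 in Hypoxia_PBS and 34.9 in Hypoxia_DEX. The levels differed at both ends: the PBS mean was higher in hypoxia than in normoxia in 70 of the 97 genes, the DEX mean was lower in 80, and both held in 53. Over all tested genes the PBS mean was higher in hypoxia in 49.4% and the DEX mean lower in 49.9%. The 97 genes were chosen by the same contrast, so these counts describe them only.

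The clearest hormone target of this shape was Ddit4, which encodes REDD1, a stress protein that restrains mTORC1, a kinase complex that promotes growth. Ddit4 (chromosome 10, 59949669 to 59951834, minus strand, mm10) had 4.13, 3.80 and 4.68 CPM in Normoxia_PBS, 135, 167 and 194 in Normoxia_DEX, 10.5, 19.6 and 10.5 in Hypoxia_PBS and 114, 80.4 and 106 in Hypoxia_DEX. The ranges of the 4 groups did not overlap: hypoxia alone put Ddit4 above the air controls, and DEX left it below its level in air. It rose 39.3-fold with DEX in normoxia and 7.42-fold in hypoxia, an interaction of -2.40, SE 0.36, edgeR adjusted p = 0.012, -2.42 in the 10-library fit and -2.47 in the summed fit. Ddit4 was called in 19 of 20 alternatives, with an edgeR or DESeq2 adjusted p of 5.52e-10 to 0.0686. Sgk1, a kinase of the insulin signalling branch named for its induction by glucocorticoids (chromosome 10, 21882184 to 21999903, plus strand), had 30.5, 45.8 and 54.3 CPM in Normoxia_PBS, 112, 135 and 139 in Normoxia_DEX, 62.6, 67.5 and 61.9 in Hypoxia_PBS and 60.3, 73.3 and 58.5 in Hypoxia_DEX. All Normoxia_DEX libraries lay above every other library, and the 2 hypoxia groups overlapped. Sgk1 rose 2.95-fold with DEX in normoxia, whereas the ratio in hypoxia was 1.001 (log2 change -0.000602, edgeR adjusted p = 0.999), with an interaction of -1.56, SE 0.25, edgeR adjusted p = 0.012, -1.69 in the 10-library fit and -1.51 in the summed fit. Sgk1 was called in 19 of 20 alternatives, with an edgeR or DESeq2 adjusted p of 2.61e-07 to 0.0984.

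The promoters of these 2 genes are shown with that of Pdp2, a gene with a stronger rise in hypoxia, because they hold the letters of known response elements. They run from 250 bases before to 50 after the start, 5′ to 3′ on the gene's strand, from RefSeq on GRCm38.p6, and capitals mark the matches of the motifs searched on both strands: GNACA and TGTNC with 3 bases between them (the receptor's inverted repeat), ACGTG or GCGTG (the core of the HIF element), CACGTG (the E-box of clock and MYC family proteins, which also contains ACGTG), TGACGTCA (the CREB element) and TGANTCA (the AP-1 element). Ddit4 lies at chr10:59951721-59952020, minus strand, with ACGTG 187 and GCGTG 115 bases before the start. Sgk1, which has 6 starts in the table, is shown at chr10:21993640-21993939, plus strand, with GAACAGAATGTTC 188 and CACGTG 246 bases before the start. Pdp2 lies at chr8:104591222-104591521, plus strand, with CACGTG 219 bases before the start.
Ddit4: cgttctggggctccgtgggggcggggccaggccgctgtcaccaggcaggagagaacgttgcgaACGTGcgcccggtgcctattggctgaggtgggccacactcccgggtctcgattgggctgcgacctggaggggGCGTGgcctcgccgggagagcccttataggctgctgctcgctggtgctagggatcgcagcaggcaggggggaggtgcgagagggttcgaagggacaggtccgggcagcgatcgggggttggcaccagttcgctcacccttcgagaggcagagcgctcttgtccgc
Sgk1: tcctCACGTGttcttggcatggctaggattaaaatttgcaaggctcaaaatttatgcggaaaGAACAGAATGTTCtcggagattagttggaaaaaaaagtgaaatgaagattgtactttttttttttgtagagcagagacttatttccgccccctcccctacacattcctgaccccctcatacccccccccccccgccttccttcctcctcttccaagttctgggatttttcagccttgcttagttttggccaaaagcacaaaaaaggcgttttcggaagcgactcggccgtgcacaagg
Pdp2: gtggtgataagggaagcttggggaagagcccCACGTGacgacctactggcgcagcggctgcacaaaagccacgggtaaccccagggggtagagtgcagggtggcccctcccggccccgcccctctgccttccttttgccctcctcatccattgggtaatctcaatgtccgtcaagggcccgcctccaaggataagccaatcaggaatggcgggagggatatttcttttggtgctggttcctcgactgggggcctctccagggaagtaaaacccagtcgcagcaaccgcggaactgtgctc

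A match is only a match of letters. The Sgk1 start shown was picked because it holds the inverted repeat, which the gene's other starts lack. Which start was used in these livers was not tested. Of 12459 promoters, for the 9684 tested genes that the table holds, 0.345% had this inverted repeat, against 1 of the 165 promoters of called genes (0.606%), the one of Sgk1 shown. ACGTG or GCGTG was in 60.4% of all promoters and in 58.2% of those of called genes, and CACGTG in 9.8% and 10.3%. TGACGTCA was in 2.81% and 1.82%, and TGANTCA in 5.35% and 4.24%.

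Several genes of the weaker rise reached a lower level with DEX in hypoxia from a like level with PBS. Tcim, a small regulatory protein, had 14.2, 12.1 and 10.7 CPM in Normoxia_PBS, 103, 116 and 129.9 in Normoxia_DEX, 22.6, 15.1 and 13.8 in Hypoxia_PBS and 31.2, 43.9 and 36.7 in Hypoxia_DEX. All Normoxia_DEX libraries were above the Hypoxia_DEX libraries, and the 2 PBS groups overlapped. Its rise was 9.45-fold in normoxia and 2.17-fold in hypoxia (interaction -2.13, SE 0.27, edgeR adjusted p = 0.0034, -1.99999 in the 10-library fit and -2.06 in the summed fit). Tcim was called in all 20 alternatives, with an edgeR or DESeq2 adjusted p of 9.61e-12 to 0.017. Fam89a had 3.14, 3.28 and 2.84 CPM in Normoxia_PBS, 13.97, 21.4 and 21.6 in Normoxia_DEX, 1.99, 3.25 and 4.395 in Hypoxia_PBS and 2.99, 5.61 and 3.46 in Hypoxia_DEX, so that Normoxia_DEX alone stood apart from the other groups. It rose 6.16-fold in normoxia, and its interaction was -2.32, SE 0.41, edgeR adjusted p = 0.0202, -2.86 in the 10-library fit and -2.22 in the summed fit. Fam89a was called in 12 of 20 alternatives, with an edgeR or DESeq2 adjusted p of 8.62e-06 to 0.0728. Fam89a lost the call without any one of Hypoxia_DEX 1 and 3, Hypoxia_PBS 3, Normoxia_DEX 2 and 3, Normoxia_PBS 1 and 2, and in the summed fit. Srxn1, which encodes sulfiredoxin, an enzyme that restores oxidised peroxiredoxins, and Ep300, a histone acetyltransferase that serves the receptor as a coactivator, moved less. Srxn1 ranged from 47.5 to 52.2 CPM in Normoxia_DEX and from 24.1 to 36.0 in the hypoxia libraries (interaction -0.89, SE 0.15, edgeR adjusted p = 0.0134, -0.66 in the 10-library fit and -0.93 in the summed fit). For Ep300 the Normoxia_DEX libraries spanned 69.8 to 83.5 CPM and the Hypoxia_DEX libraries 46.0 to 49.4 (interaction -0.76, SE 0.12, edgeR adjusted p = 0.00926, -0.71 in the 10-library fit and -0.77 in the summed fit). Srxn1 was called in all 20 alternatives, with an edgeR or DESeq2 adjusted p of 6.67e-05 to 0.0457. Ep300 was called in 19 of 20 alternatives, with an edgeR or DESeq2 adjusted p of 2.17e-05 to 0.0788.

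In others DEX brought both oxygen levels to a like level, from a higher start in hypoxia. Fmo5, a flavin-containing monooxygenase of drug metabolism, had 398, 492 and 589.9 CPM in Normoxia_PBS, 1999, 2268 and 2001 in Normoxia_DEX, 1225, 1362 and 1103 in Hypoxia_PBS and 2081, 2169 and 2159.8 in Hypoxia_DEX. The 2 DEX groups overlapped and all Hypoxia_PBS libraries were above all Normoxia_PBS libraries. DEX raised it 4.24-fold in normoxia and 1.74-fold in hypoxia (interaction -1.29, SE 0.18, edgeR adjusted p = 0.00325, -1.299 in the 10-library fit and -1.28 in the summed fit). Fmo5 was called in 19 of 20 alternatives, with an edgeR or DESeq2 adjusted p of 5.18e-09 to 0.053. Gadd45g, a stress gene that slows the cell cycle, gave the same picture, with 54.7, 76.1 and 80.6 CPM in Normoxia_PBS, 184, 189 and 188 in Normoxia_DEX, 171, 178 and 165 in Hypoxia_PBS and 189.7, 216 and 180.1 in Hypoxia_DEX. It rose 2.65-fold in normoxia, while its ratio in hypoxia was 1.14, with the Hypoxia_DEX libraries just above the Hypoxia_PBS libraries (interaction -1.22, SE 0.17, edgeR adjusted p = 0.00331, -1.297 in the 10-library fit and -1.18 in the summed fit). Gadd45g was called in all 20 alternatives, with an edgeR or DESeq2 adjusted p of 1.73e-08 to 0.0365. Cyp3a11, a major drug-metabolising P450, had 2990.5, 3151 and 3358 CPM in Normoxia_PBS, 6223, 4807 and 6018 in Normoxia_DEX, 4969.7, 5206 and 5798 in Hypoxia_PBS and 6042, 6049 and 6297 in Hypoxia_DEX (interaction -0.64, SE 0.14, edgeR adjusted p = 0.0464, -0.68 in the 10-library fit and -0.64 in the summed fit). Cyp3a11 was called in 8 of 20 alternatives, with an edgeR or DESeq2 adjusted p of 0.000741 to 0.163. Cyp3a11 lost the call without any one of Hypoxia_DEX 1, 2 and 3, Hypoxia_PBS 2 and 3, Normoxia_DEX 1 and 3, Normoxia_PBS 1 and 2, and in the summed fit. It and Slc22a30, described below, belong to families of close copies, so reads may be split between them and their relatives. Hlf, a clock-driven transcription factor, also started higher in hypoxia, but its DEX groups did not overlap and hypoxia stayed the higher. It was at 32.2 to 39.0, 58.5 to 67.8, 74.8 to 90.6 and 90.1 to 99.1 CPM in the same order of groups (interaction -0.61, SE 0.13, edgeR adjusted p = 0.0428, -0.49 in the 10-library fit and -0.63 in the summed fit). Hlf was called in 9 of 20 alternatives, with an edgeR or DESeq2 adjusted p of 0.00371 to 0.189. Hlf lost the call without any one of Hypoxia_DEX 1, 2 and 3, Normoxia_DEX 2 and 3, Normoxia_PBS 1 and 2, and in the 10-library and summed fits.

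Thrsp (Spot 14), a nuclear protein that promotes fatty acid synthesis, changed at both ends. It had 63.1, 113 and 151 CPM in Normoxia_PBS, 1067, 1122 and 1191 in Normoxia_DEX, 398, 400.5 and 314 in Hypoxia_PBS and 972, 927 and 978 in Hypoxia_DEX. No 2 groups overlapped, and DEX raised it 10.3-fold in normoxia and 2.59-fold in hypoxia (interaction -1.998, SE 0.34, edgeR adjusted p = 0.0206, -1.92 in the 10-library fit and -2.01 in the summed fit). Thrsp was called in 9 of 20 alternatives, with an edgeR or DESeq2 adjusted p of 1.08e-07 to 0.21. Thrsp lost the call without any one of Hypoxia_DEX 1, 2 and 3, Hypoxia_PBS 2, Normoxia_DEX 2 and 3, Normoxia_PBS 2, and in the 10-library and summed fits. Treh (trehalase) and Hspa1a (the inducible heat shock protein Hsp70) had few reads, with a lowest count of 1 and 3 in a library. Treh was at 0.066 to 0.291 CPM in Normoxia_PBS, 2.13 to 2.21 in Normoxia_DEX, 4.53 to 5.62 in Hypoxia_PBS and 5.70 to 12.2 in Hypoxia_DEX, so it was highest in hypoxia although its rise there was smaller (interaction -2.49, SE 0.54, edgeR adjusted p = 0.042, -2.16 in the 10-library fit and -2.62 in the summed fit). Treh was called in 8 of 20 alternatives, with an edgeR or DESeq2 adjusted p of 0.00206 to 0.11. Treh lost the call without any one of Hypoxia_DEX 1 and 3, Hypoxia_PBS 1, 2 and 3, Normoxia_DEX 1, 2 and 3, Normoxia_PBS 1, 2 and 3, and in the summed fit. Its exons overlap those of Phldb1 on the opposite strand of the mm10 annotation, and since the strand setting of the counting is not given in the sources used here, reads of such pairs cannot be told apart. Hspa1a was at 0.175 to 0.308, 1.36 to 2.53, 0.400 to 0.868 and 0.539 to 0.614 CPM in the same order (interaction -3.02, SE 0.59, edgeR adjusted p = 0.0291, -3.24 in the 10-library fit and -3.01 in the summed fit). Hspa1a was called in 9 of 16 alternatives, with an edgeR adjusted p of 0.00494 to 0.0787. Hspa1a lost the call without any one of Hypoxia_DEX 1 and 3, Hypoxia_PBS 2, Normoxia_PBS 1 and 3, and in the summed fit. Hspa1b is nearly identical to it, so its counts are uncertain. Only the Normoxia_DEX libraries of Hspa1a reached 1 CPM, so it passed the filter through the group where it was highest. Fits that left out a Normoxia_DEX library did not hold it, DESeq2 gave it no adjusted p, and its interaction supports nothing by itself.

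Genes that DEX lowered in normoxia and not, or less, in hypoxia included the transcription factors Klf10, Mnt, Egr1 and Bhlhe40 and the feedback inhibitor Socs3. Klf10, a zinc finger repressor induced by TGF-beta, had 55.5, 42.0 and 42.5 CPM in Normoxia_PBS, 6.64, 10.2 and 13.6 in Normoxia_DEX, 65.8, 54.6 and 55.0 in Hypoxia_PBS and 47.1, 49.2 and 54.7 in Hypoxia_DEX. Every Normoxia_DEX library lay below every other library, and the 2 hypoxia groups overlapped. Its log2 response was -2.204 in normoxia and -0.22 in hypoxia, with an interaction of 1.99, SE 0.28, edgeR adjusted p = 0.00792, 2.10 in the 10-library fit and 1.99 in the summed fit. Klf10 was called in 19 of 20 alternatives, with an edgeR or DESeq2 adjusted p of 4.39e-09 to 0.0686. Mnt, a repressor that competes with MYC for its partner MAX, had 18.2, 18.1 and 16.7 CPM in Normoxia_PBS, 5.62, 4.96 and 6.47 in Normoxia_DEX, 15.2, 10.8 and 12.6 in Hypoxia_PBS and 12.9, 12.8 and 11.2 in Hypoxia_DEX. It showed the same separation of Normoxia_DEX, with an interaction of 1.57, SE 0.19, edgeR adjusted p = 0.00136, 1.69 in the 10-library fit and 1.59 in the summed fit. Mnt was called in all 20 alternatives, with an edgeR or DESeq2 adjusted p of 1.08e-09 to 0.00949.

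Egr1, an immediate early transcription factor, had 57.99, 86.4 and 64.3 CPM in Normoxia_PBS, 26.2, 30.4 and 31.3 in Normoxia_DEX, 64.6, 71.8 and 49.7 in Hypoxia_PBS and 74.8, 85.3 and 71.6 in Hypoxia_DEX. It fell with DEX in normoxia, and the hypoxia groups overlapped (interaction 1.56, SE 0.23, edgeR adjusted p = 0.00731, 1.52 in the 10-library fit and 1.60 in the summed fit). Egr1 was called in 19 of 20 alternatives, with an edgeR or DESeq2 adjusted p of 8.19e-08 to 0.093. Bhlhe40, a repressor that is both a clock gene and a HIF target, was at 135 to 184 CPM in Normoxia_PBS, 52.9 to 81.5 in Normoxia_DEX, 159 to 190 in Hypoxia_PBS and 164 to 180 in Hypoxia_DEX (interaction 1.28, SE 0.21, edgeR adjusted p = 0.0127, 1.25 in the 10-library fit and 1.26 in the summed fit). Bhlhe40 was called in 19 of 20 alternatives, with an edgeR or DESeq2 adjusted p of 1.1e-05 to 0.106. Socs3, the feedback inhibitor of STAT3 signalling, had 85.2, 139 and 134 CPM in Normoxia_PBS, 28.95, 28.2 and 31.3 in Normoxia_DEX, 276, 195 and 169.9 in Hypoxia_PBS and 172, 126 and 171 in Hypoxia_DEX. All hypoxia libraries were above all Normoxia_DEX libraries, with or without DEX (interaction 1.57, SE 0.31, edgeR adjusted p = 0.0402, 1.93 in the 10-library fit and 1.498 in the summed fit). Socs3 was called in 8 of 20 alternatives, with an edgeR or DESeq2 adjusted p of 3.89e-05 to 0.11. Socs3 lost the call without any one of Hypoxia_DEX 1 and 3, Hypoxia_PBS 2 and 3, Normoxia_DEX 1, 2 and 3, Normoxia_PBS 2 and 3, and in the summed fit.

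The largest differences of this shape were in Efna1, a ligand of Eph receptors, and Osgin1, a growth inhibitor induced by oxidative stress. Efna1 had 86.2, 72.7 and 51.2 CPM in Normoxia_PBS, 10.6, 4.06 and 13.3 in Normoxia_DEX, 41.2, 52.2 and 58.9 in Hypoxia_PBS and 50.97, 39.6 and 53.4 in Hypoxia_DEX (interaction 2.86, SE 0.51, edgeR adjusted p = 0.0374, 2.86 in the 10-library fit and 2.80 in the summed fit). Osgin1 had 387, 404 and 240.0, 49.8, 27.4 and 49.7, 228, 168 and 294 and 152, 148 and 163 in the same order of groups (interaction 2.45, SE 0.40, edgeR adjusted p = 0.0206, 2.47 in the 10-library fit and 2.44 in the summed fit). In both genes the Normoxia_DEX libraries were the 3 lowest of the 12. Efna1 was called in 6 of 20 alternatives, with an edgeR or DESeq2 adjusted p of 6.66e-05 to 0.172. Efna1 lost the call without any one of Hypoxia_DEX 1, 2 and 3, Hypoxia_PBS 1, 2 and 3, Normoxia_DEX 1, Normoxia_PBS 1 and 2, and in the 10-library and summed fits. Osgin1 was called in 14 of 20 alternatives, with an edgeR or DESeq2 adjusted p of 4.47e-09 to 0.168. Osgin1 lost the call without any one of Hypoxia_DEX 1 and 3, Normoxia_PBS 1, and in the 10-library and summed fits. Ddit3 (CHOP), a transcription factor of the unfolded protein response, was at 1.82 to 2.83 CPM in Normoxia_DEX and at 5.05 to 10.9 in all other libraries (interaction 1.45, SE 0.32, edgeR adjusted p = 0.0479, 1.12 in the 10-library fit and 1.495 in the summed fit). Ddit3 was called in 6 of 20 alternatives, with an edgeR or DESeq2 adjusted p of 0.00454 to 0.145. Ddit3 lost the call without any one of Hypoxia_DEX 1, 2 and 3, Hypoxia_PBS 2, Normoxia_DEX 1, 2 and 3, Normoxia_PBS 1, 2 and 3, and in the summed fit. Its exons overlap those of Mars on the opposite strand. Crtc2, a coactivator of CREB in fasting glucose production, was at 25.9 to 28.1 CPM in Normoxia_DEX and at 42.3 to 52.1 in all others (interaction 0.67, SE 0.11, edgeR adjusted p = 0.0111, 0.61 in the 10-library fit and 0.68 in the summed fit). Crtc2 was called in 19 of 20 alternatives, with an edgeR or DESeq2 adjusted p of 0.000417 to 0.0862.

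Among the 10 stronger rises in hypoxia the PBS mean was higher in hypoxia in 2 genes. Over all tested genes it was higher in 49.4%. The median level of the 10 was 48.4 CPM in Normoxia_PBS, 50.9 in Normoxia_DEX, 30.9 in Hypoxia_PBS and 61.9 in Hypoxia_DEX. They were chosen by the same contrast, which favours a low Hypoxia_PBS level, so these values describe them only. Only 2 of the 10 had a positive change with DEX in normoxia too, so for the rest the rise was seen in hypoxia alone. Acacb, the acetyl-CoA carboxylase whose product restrains fatty acid entry into mitochondria, had 144, 151 and 141 CPM in Normoxia_PBS, 138, 143 and 136 in Normoxia_DEX, 87.3, 78.0 and 69.6 in Hypoxia_PBS and 164, 175 and 157 in Hypoxia_DEX. All Hypoxia_PBS libraries lay below, and all Hypoxia_DEX libraries above, those of the normoxia groups. It rose 2.11-fold with DEX in hypoxia and had a ratio of 0.956 in normoxia (interaction 1.14, SE 0.12, edgeR adjusted p = 0.000827, 1.19 in the 10-library fit and 1.16 in the summed fit). Acacb was called in all 20 alternatives, with an edgeR or DESeq2 adjusted p of 1.96e-15 to 0.00435. Pdp2, a phosphatase that activates the pyruvate dehydrogenase complex, had 52.1, 36.9 and 43.5 CPM in Normoxia_PBS, 57.1, 45.8 and 64.3 in Normoxia_DEX, 29.4, 23.4 and 24.04 in Hypoxia_PBS and 86.6, 89.5 and 92.2 in Hypoxia_DEX. Its hypoxia groups likewise lay on either side of the normoxia libraries, and it rose 3.49-fold in hypoxia (interaction 1.47, SE 0.20, edgeR adjusted p = 0.00382, 1.58 in the 10-library fit and 1.47 in the summed fit). Pdp2 was called in all 20 alternatives, with an edgeR or DESeq2 adjusted p of 2.93e-08 to 0.0383.

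Midn, a nuclear protein that targets others to the proteasome, rose at both oxygen levels and had 101, 89.2 and 90.7 CPM in Normoxia_PBS, 117, 119.7 and 132 in Normoxia_DEX, 40.7, 51.4 and 50.5 in Hypoxia_PBS and 134, 152 and 132 in Hypoxia_DEX (interaction 1.16, SE 0.14, edgeR adjusted p = 0.00136, 0.99 in the 10-library fit and 1.19 in the summed fit). Midn was called in all 20 alternatives, with an edgeR or DESeq2 adjusted p of 6.06e-10 to 0.00815. Smaller differences were those of Nup107, a nuclear pore subunit (interaction 0.97, SE 0.21, edgeR adjusted p = 0.0412, 1.12 in the 10-library fit and 0.97 in the summed fit), and Hspe1, the mitochondrial co-chaperonin (interaction 0.45, SE 0.10, edgeR adjusted p = 0.0452, 0.45 in the 10-library fit and 0.47 in the summed fit). Nup107 was at 4.98 to 5.65 CPM in Normoxia_PBS, 3.48 to 4.43 in Normoxia_DEX, 3.53 to 4.80 in Hypoxia_PBS and 5.75 to 6.17 in Hypoxia_DEX. In normoxia all its DEX libraries lay below all its PBS libraries, a fall that was not called (log2 -0.43, edgeR adjusted p = 0.0587). Nup107 was called in 8 of 20 alternatives, with an edgeR or DESeq2 adjusted p of 0.0159 to 0.114. Nup107 lost the call without any one of Hypoxia_DEX 1, 2 and 3, Hypoxia_PBS 2 and 3, Normoxia_DEX 2 and 3, Normoxia_PBS 1, 2 and 3, and in the summed fit. Hspe1 was called in 3 of 20 alternatives, with an edgeR or DESeq2 adjusted p of 0.0123 to 0.129. Hspe1 lost the call without any one of Hypoxia_DEX 1, 2 and 3, Hypoxia_PBS 2 and 3, Normoxia_DEX 1, 2 and 3, Normoxia_PBS 1, 2 and 3, and in the summed fit. Its exons overlap those of Hspd1 on the opposite strand.

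Among the stronger falls, of which 3 of 13 also had a negative change with DEX in normoxia, were 2 organic anion transporters. Slc22a30 had 104, 112 and 91.5 CPM in Normoxia_PBS, 96.7, 87.6 and 96.0 in Normoxia_DEX, 38.5, 59.4 and 52.3 in Hypoxia_PBS and 13.7, 21.9 and 18.1 in Hypoxia_DEX. The normoxia groups overlapped, Hypoxia_PBS lay below them and Hypoxia_DEX lower still (interaction -1.36, SE 0.24, edgeR adjusted p = 0.024, -1.67 in the 10-library fit and -1.28 in the summed fit). Slc22a30 was called in 13 of 20 alternatives, with an edgeR or DESeq2 adjusted p of 1.15e-05 to 0.0728. Slc22a30 lost the call without any one of Hypoxia_DEX 3, Hypoxia_PBS 3, Normoxia_DEX 1, 2 and 3, Normoxia_PBS 1 and 3. Slc22a7, which encodes OAT2, was at 7.06 to 8.93 CPM in Normoxia_PBS, 9.71 to 14.1 in Normoxia_DEX, 4.33 to 6.36 in Hypoxia_PBS and 2.34 to 3.51 in Hypoxia_DEX (interaction -1.39, SE 0.28, edgeR adjusted p = 0.0352, -1.67 in the 10-library fit and -1.33 in the summed fit). Slc22a7 was called in 10 of 20 alternatives, with an edgeR or DESeq2 adjusted p of 0.000763 to 0.109. Slc22a7 lost the call without any one of Hypoxia_DEX 1 and 3, Hypoxia_PBS 2 and 3, Normoxia_DEX 1 and 3, Normoxia_PBS 1, 2 and 3, and in the summed fit. Bcl9, a coactivator of beta-catenin, was at 5.28 to 6.59 CPM in all libraries but those of Hypoxia_DEX, which had 2.64, 2.19 and 2.98 (interaction -1.25, SE 0.20, edgeR adjusted p = 0.0105, -1.18 in the 10-library fit and -1.27 in the summed fit). Bcl9 was called in 19 of 20 alternatives, with an edgeR or DESeq2 adjusted p of 0.00029 to 0.0614. Ajuba, an adaptor of the Hippo pathway, was likewise lowest in Hypoxia_DEX, at 2.46 to 2.98 CPM against 4.11 to 6.42 elsewhere (interaction -1.23, SE 0.26, edgeR adjusted p = 0.04, -0.996 in the 10-library fit and -1.24 in the summed fit). Ajuba was called in 9 of 20 alternatives, with an edgeR or DESeq2 adjusted p of 0.00446 to 0.168. Ajuba lost the call without any one of Hypoxia_DEX 1, 2 and 3, Normoxia_DEX 1 and 2, Normoxia_PBS 1, 2 and 3, and in the 10-library and summed fits. Rgs4, which limits G protein signalling, was at 7.20 to 9.18 CPM in Hypoxia_PBS, 3.71 to 4.82 in Hypoxia_DEX and 1.32 to 2.65 in the normoxia libraries (interaction -1.35, SE 0.28, edgeR adjusted p = 0.04, -1.55 in the 10-library fit and -1.301 in the summed fit). Rgs4 was called in 10 of 20 alternatives, with an edgeR or DESeq2 adjusted p of 0.00319 to 0.11. Rgs4 lost the call without any one of Hypoxia_DEX 1 and 3, Hypoxia_PBS 2 and 3, Normoxia_DEX 2 and 3, Normoxia_PBS 2 and 3, and in the summed fit.

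In the 17 genes of opposite response, 7 fell with DEX in normoxia and rose in hypoxia, and 10 did the reverse. Plk3, a stress-activated kinase of the p53 response, had 85.7, 57.9 and 68.7 CPM in Normoxia_PBS, 41.7, 36.9 and 37.5 in Normoxia_DEX, 71.1, 106 and 92.4 in Hypoxia_PBS and 177, 144 and 191 in Hypoxia_DEX. Normoxia_DEX was the lowest and Hypoxia_DEX the highest group, with no overlap with others, and the PBS groups overlapped. The ratio of DEX to PBS was 0.547 in normoxia and 1.90 in hypoxia (interaction 1.80, SE 0.24, edgeR adjusted p = 0.00405, 1.76 in the 10-library fit and 1.75 in the summed fit). Plk3 was called in all 20 alternatives, with an edgeR or DESeq2 adjusted p of 6.06e-10 to 0.0192. Nr3c2, the mineralocorticoid receptor, which also binds glucocorticoids, had 11.9, 12.8 and 9.56, 8.69, 8.81 and 7.03, 7.56, 8.82 and 9.46 and 12.6, 10.9 and 12.1 CPM in the same order of groups, so that the 2 outer groups lay above the 2 inner ones (interaction 0.95, SE 0.19, edgeR adjusted p = 0.0346, 0.92 in the 10-library fit and 0.93 in the summed fit). Nr3c2 was called in 10 of 20 alternatives, with an edgeR or DESeq2 adjusted p of 0.00314 to 0.102. Nr3c2 lost the call without any one of Hypoxia_DEX 1 and 3, Hypoxia_PBS 2, Normoxia_DEX 1, 2 and 3, Normoxia_PBS 1 and 2, and in the summed fit.

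Fbf1, a protein of the fibres that anchor cilia, had the largest positive interaction of the called genes named here, with 75.1, 24.8 and 62.4 CPM in Normoxia_PBS, 20.6, 8.64 and 25.8 in Normoxia_DEX, 12.8, 19.7 and 16.8 in Hypoxia_PBS and 79.1, 97.9 and 90.7 in Hypoxia_DEX. Hypoxia_DEX was above all other libraries, and the other 3 groups overlapped in part (interaction 4.01, SE 0.67, edgeR adjusted p = 0.0302, 3.80 in the 10-library fit and 4.05 in the summed fit). Fbf1 was called in 7 of 20 alternatives, with an edgeR or DESeq2 adjusted p of 8.46e-07 to 0.194. Fbf1 lost the call without any one of Hypoxia_DEX 1, 2 and 3, Hypoxia_PBS 1, 2 and 3, Normoxia_DEX 1, Normoxia_PBS 1 and 3, and in the 10-library and summed fits. Of the reverse kind, Map3k13, a kinase upstream of JNK, had 22.8, 24.996 and 24.996 CPM in Normoxia_PBS, 37.02, 44.9 and 41.2 in Normoxia_DEX, 23.1, 30.2 and 33.5 in Hypoxia_PBS and 18.7, 17.1 and 17.9 in Hypoxia_DEX, with Normoxia_DEX the highest and Hypoxia_DEX the lowest group (interaction -1.45, SE 0.17, edgeR adjusted p = 0.00136, -1.56 in the 10-library fit and -1.46 in the summed fit). Map3k13 was called in all 20 alternatives, with an edgeR or DESeq2 adjusted p of 3.31e-10 to 0.00763. Its exons overlap those of 1300002E11Rik on the same strand. Exph5, a partner of Rab27 in vesicle release, was at 4.41 to 4.75, 6.29 to 7.33, 8.86 to 11.1 and 4.79 to 5.96 CPM in the order of groups used above (interaction -1.48, SE 0.18, edgeR adjusted p = 0.00178, -1.46 in the 10-library fit and -1.45 in the summed fit), and F11, coagulation factor XI, at 55.1 to 63.0, 77.2 to 88.8, 51.6 to 80.9 and 36.8 to 42.0 (interaction -1.23, SE 0.19, edgeR adjusted p = 0.00744, -1.33 in the 10-library fit and -1.24 in the summed fit). Exph5 was called in all 20 alternatives, with an edgeR or DESeq2 adjusted p of 8.19e-08 to 0.0129. F11 was called in all 20 alternatives, with an edgeR or DESeq2 adjusted p of 1.14e-06 to 0.0322.

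**Figure D3:**
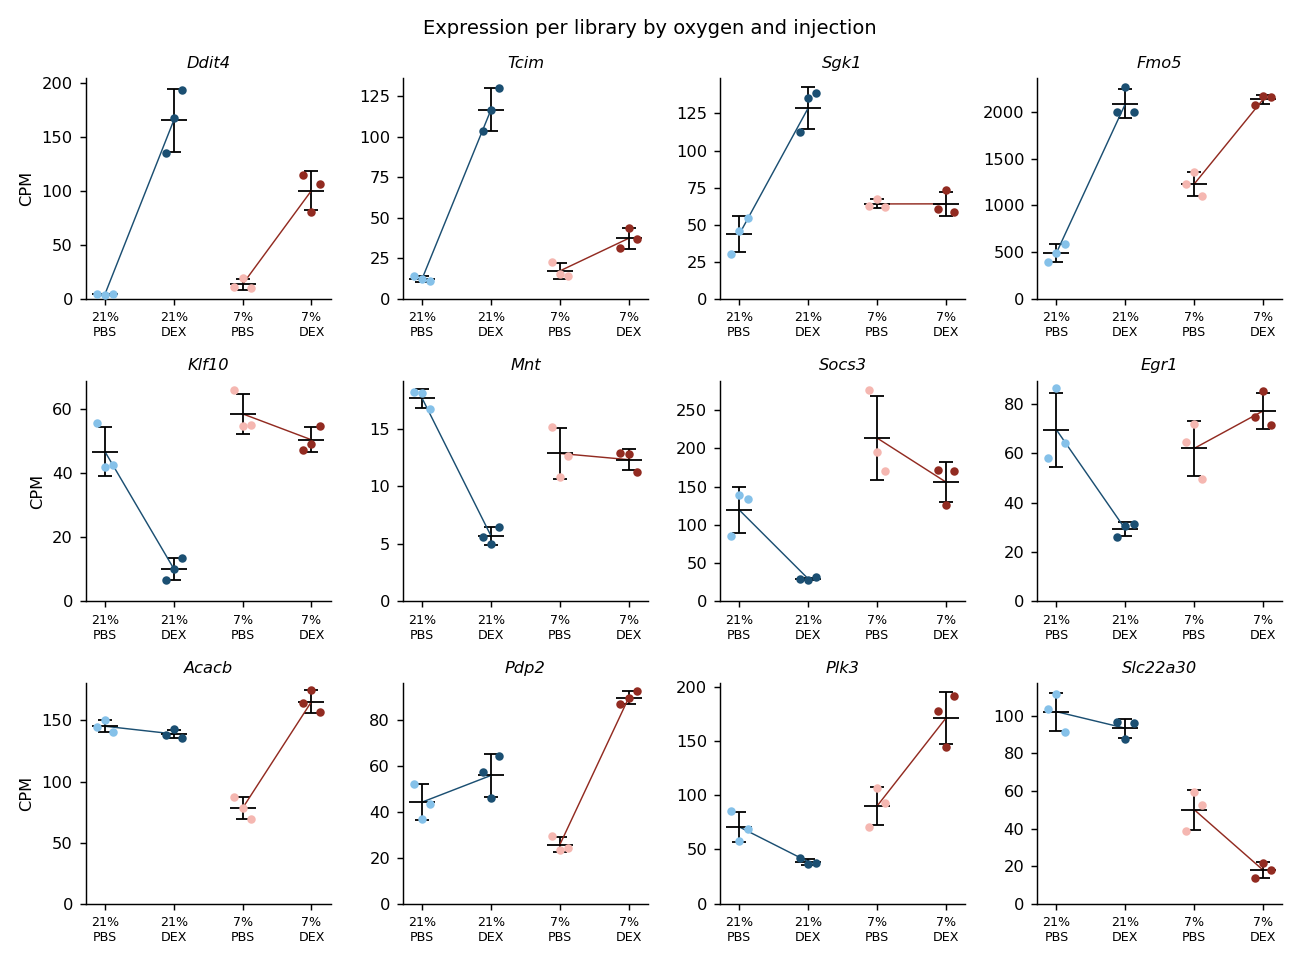
CPM of 12 genes per library (points), with the group mean and SD (bars, n = 3), by oxygen and injection; lines join PBS to DEX at each oxygen level, and each vertical axis starts at 0. Ddit4, Tcim, Sgk1 and Fmo5 rose less or not in hypoxia, Klf10, Mnt, Socs3 and Egr1 fell in normoxia and were not called in hypoxia, and the bottom row holds genes with a stronger or opposite response; these 12 were chosen after their values were seen.

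A larger share of the receptor's known targets than of all genes was called, though most of them were not. All 40 listed targets were tested, and 4 (10%, against 1.36% of all genes) were called: Sgk1, Ddit4 and Tsc22d1 lower and Irs2 higher. At an unadjusted edgeR p under 0.05 there were 13 of the 40, beside 1620 of all 12801 tested genes. With DEX, 23 of the 40 rose in normoxia (9.43% of all genes did), with a median log2 change over the list of 1.02, and 22 rose in hypoxia (7.55%), with a median of 0.70. The median interaction was -0.08, beside 0.01 over all tested genes. In the 10-library fit, where 3.73% of all genes were called, Irs2 lost its call and Fam107a and Rasd1 gained one (5 called, all lower, median -0.26). In the summed fit, where 0.556% of all genes were called, Sgk1, Ddit4 and Tsc22d1 were called (median -0.02). Tsc22d1, a leucine zipper protein related to the gene below and named here after its values were seen, had 15.5, 12.9 and 14.4 CPM in Normoxia_PBS, 44.5, 51.2 and 48.8 in Normoxia_DEX, 32.5, 27.3 and 27.4 in Hypoxia_PBS and 39.8, 32.2 and 38.5 in Hypoxia_DEX (interaction -1.41, SE 0.15, edgeR adjusted p = 0.000827, -1.24 in the 10-library fit and -1.45 in the summed fit, called in both). Irs2, the insulin receptor substrate of liver, named likewise, had 63.7, 86.8 and 109, 56.5, 36.8 and 49.3, 218, 231 and 201 and 289, 335 and 303 CPM in that order, so that every hypoxia library was above every normoxia library (interaction 1.38, SE 0.26, edgeR adjusted p = 0.0342). It was not called in the 10-library fit (1.32, edgeR adjusted p = 0.0794) or the summed fit (1.41, edgeR adjusted p = 0.0773).

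Other textbook targets had a smaller log2 change in hypoxia without being called for the interaction. Tsc22d3 (GILZ), an anti-inflammatory target, had 36.7, 50.04 and 50.1 CPM in Normoxia_PBS, 136, 178 and 173 in Normoxia_DEX, 38.5, 43.97 and 25.1 in Hypoxia_PBS and 60.2, 56.5 and 56.5 in Hypoxia_DEX, with an interaction of -1.15, SE 0.27, edgeR adjusted p = 0.0699, -1.07 in the 10-library fit and -1.15 in the summed fit. Dusp1, a phosphatase that switches off MAP kinases, had 15.95, 17.2 and 25.98, 52.9, 90.7 and 90.2, 21.97, 30.8 and 23.6 and 37.4, 43.4 and 33.6 (interaction -1.41, SE 0.35, edgeR adjusted p = 0.0943, -1.60 in the 10-library fit and -1.36 in the summed fit). In both genes the Normoxia_DEX libraries were the 3 highest of the 12. Fkbp5, a co-chaperone that feeds back on the receptor, had 110.5, 59.3 and 127, 522, 573 and 516, 305, 249 and 181 and 540.0, 548 and 513, with the DEX groups overlapping and the Hypoxia_PBS libraries above the Normoxia_PBS ones (interaction -1.32, SE 0.35, edgeR adjusted p = 0.119, -1.15 in the 10-library fit and -1.31 in the summed fit). Tsc22d3 was called in 2 of 20 alternatives, with an edgeR or DESeq2 adjusted p of 0.00176 to 0.329. These were DESeq2 and the fits without Hypoxia_PBS 3. Dusp1 was called in 3 of 20 alternatives, with an edgeR or DESeq2 adjusted p of 0.00206 to 0.258. These were DESeq2 and the fits without Normoxia_DEX 1 or Normoxia_PBS 3. Fkbp5 was called in 1 of 20 alternatives, with an edgeR or DESeq2 adjusted p of 0.00402 to 0.389. The exons of Dusp1 overlap those of Ergic1 on the opposite strand. Further targets were not called in any alternative, with interactions of 0.44 for Tat, the tyrosine aminotransferase, 0.44 for Pck1, the gate of gluconeogenesis, -0.67 for the siderophore-binding protein gene Lcn2 (-1.12 in the 10-library fit), 0.04 for the metallothionein gene Mt2, 0.52 for Klf9, 0.01 for the clock gene Per1 and 0.09 for Zfp36. Tat, for one, rose from 1126, 1235 and 2358 to 4471, 4439 and 4911 CPM in normoxia and from 1271, 1639 and 953 to 5208, 4985 and 5140.2 in hypoxia. The signs for Tat, Mt2, Per1 and Zfp36 turned under at least 1 alternative. Igfbp1 had -0.53, Angptl4, whose sign also turned, -0.05, Ppargc1a 0.46 and G6pc 1.38, again with no call in any alternative. For Klf9, Per1, Zfp36, Igfbp1, Angptl4 and G6pc the DEX response itself was not called at either oxygen level. For Per1, as an example, it was -0.07 in normoxia and -0.06 in hypoxia. The interactions of these genes therefore do not show a like induction. Lcn2 was called for DEX in normoxia only and Ppargc1a in hypoxia only. The largest positive interaction among all tested genes was that of Pdk4, a kinase that blocks pyruvate dehydrogenase and is named here after its values were seen. It had 55.3, 10.7 and 7.58 CPM in Normoxia_PBS, 13.4, 12.6 and 17.7 in Normoxia_DEX, 21.9, 9.98 and 12.1 in Hypoxia_PBS and 166, 166 and 183 in Hypoxia_DEX, and Normoxia_PBS-1 stood apart within its group (interaction 4.30, SE 0.97, edgeR adjusted p = 0.0864, not called).

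Across 40 lists of liver pathways and cell markers, 734 of 798 genes were tested and 28 were called, so 146 of the 174 called genes lay outside the lists. Of all tested genes 1.36% were called, 3.73% in the 10-library fit, 0.556% in the summed fit and 2.94% by DESeq2. The calls of each fit below stand beside its own share, and a single call in a list of 13 to 25 genes is no result about the list. Insulin, IGF and mTORC1 regulators had 4 of 24 called, Irs2 higher and Ddit4, Sgk1 and Sgk3 lower, with a list median of 0.01; the 10-library fit called Irs1 higher and Ddit4, Sgk1 and Sgk3 lower, and the summed fit Ddit4 and Sgk1 alone. Clock genes had 3 of 19, Bhlhe40 higher and Clock and Hlf lower (median -0.16). Their calls changed with the libraries: the 10-library fit called Per3, Bhlhe40 and Nr1d1 higher and Clock and Rora lower, and the summed fit Bhlhe40 alone. Drug metabolism had 2 of 29, Fmo5 and Cyp3a11, both lower (median -0.17), and 5 in the 10-library fit, where Ugt2b1, Ugt2b5 and Cyp2b9 joined them, all lower, while the summed fit called Fmo5 alone. HIF targets had 2 of 28, Bhlhe40 higher and Ddit4 lower (median -0.07), which are also in the clock and receptor target lists; both were called in the summed fit too, and the 10-library fit added Egln3 and Ndrg1, lower. The receptor, its chaperones and coregulators had 2 of 20, Nr3c2 higher and Ep300 lower (median 0.02), with Stip1 added, lower, in the 10-library fit and Ep300 alone in the summed fit. Gluconeogenesis had 1 of 20, Crtc2, higher (median 0.21), called in both other fits as well. Lipogenesis had 2 of 22, Acacb higher and Thrsp lower (median 0.03), with Acacb and Dgat1 higher in the 10-library fit and Acacb alone in the summed fit. Lists with 1 call included the Kruppel-like factors (Klf10 of 13), immediate early genes (Egr1 of 17), acute phase and STAT lists (Socs3 of 25 and of 15) and the unfolded protein response (Ddit3 of 23), all higher. The 10-library fit added Klf11 and Chac1, higher, and Crp, Cp, Hpx and Igfals, lower, with medians of -0.37 for the acute phase list and -0.27 for the Kruppel-like factors, and of these lists the summed fit called Klf10 and Egr1. The heat shock list had Hspe1 higher and Hspa1a, in the fit only through Normoxia_DEX, lower of 12. The antioxidant list had Osgin1 higher and Srxn1 lower of 18, and the list of p53 and growth arrest genes Plk3 higher and Gadd45g lower of 20. In these 3 lists the summed fit called Srxn1, Plk3 and Gadd45g, and the 10-library fit dropped Osgin1 and added Phlda3, higher, and Dnaja1, Hspa1b, Gclc and Mdm2, lower. In the other 22 lists edgeR called 0 members with all 12 libraries. Per list, 0 to 6 members had an unadjusted p under 0.05. DESeq2 called Ldha of glycolysis, Plin4 and Plin5 of lipid droplets, Insig2 of cholesterol synthesis, Dusp1 and Dusp4 of the MAPK phosphatases, Usp18 of the interferon-stimulated genes and Ncl and Gnl3 of ribosome biogenesis in those lists. Of these genes the 10-library edgeR fit also called Ldha, Plin4, Plin5 and Dusp4, each lower. That fit called further members of the 22 lists, some of which are given below.

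The cholesterol synthesis list had a median interaction below 0 whose direction rested on 1 library. By edgeR 0 of 24 were called for the interaction (2 had an unadjusted p under 0.05), and DESeq2 called Insig2, lower. The median interaction was -0.75, with 22 of 24 below 0, and the median DEX response -0.31 in normoxia and -1.04 in hypoxia. Sqle, a rate-limiting enzyme of the pathway, had 91.2, 110.5 and 115 CPM in Normoxia_PBS, 136, 42.9 and 98.1 in Normoxia_DEX, 25.4, 256 and 72.8 in Hypoxia_PBS and 31.9, 98.1 and 34.1 in Hypoxia_DEX, a gene named after its values were seen. The hypoxia groups overlapped, with Hypoxia_PBS-2 far above its replicates and Hypoxia_DEX-2 above its own. Without Hypoxia_PBS-2 the list's median turned to 0.29, and 4 of 24 were below 0. In the 10-library fit it was -1.48, with 11 of 24 genes called down with DEX in hypoxia (10.8% of all genes were in that fit), and in the summed fit -0.60.

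Among 29 cytokine, NF-kB and adhesion genes 6 fell with DEX in normoxia (8.32% of all genes did) and 6 in hypoxia (6.9%), and among 18 chemokines 8 and 6 fell. For the interaction edgeR and DESeq2 called 0 in both lists, where 1 and 5 members had an unadjusted edgeR p under 0.05. Il1b, the cytokine interleukin-1 beta, had 24.9, 49.4 and 43.7 CPM in Normoxia_PBS, 2.10, 2.95 and 2.03 in Normoxia_DEX, 26.4, 53.9 and 24.9 in Hypoxia_PBS and 4.25, 8.68 and 3.78 in Hypoxia_DEX. At both oxygen levels all DEX libraries lay below all PBS libraries, and its interaction was 1.32, SE 0.65, edgeR adjusted p = 0.446, 0.73 in the 10-library fit and 1.45 in the summed fit. Ccl2, which attracts monocytes, had 14.96, 45.5 and 55.3, 0.681, 0.451 and 0.432, 16.3, 55.4 and 33.2 and 1.38, 8.77 and 1.01 CPM in that order, with Hypoxia_DEX-2 above its replicates (interaction 2.80, SE 1.51, edgeR adjusted p = 0.49, 0.99 in the 10-library fit and 3.09 in the summed fit). Il1b was called in 0 of 20 alternatives, with an edgeR or DESeq2 adjusted p of 0.0744 to 0.777. Ccl2 was called in 0 of 20 alternatives, with an edgeR or DESeq2 adjusted p of 0.235 to 0.836. The median interaction of the cytokine list was 0.32, but -0.73 in the 10-library fit, where 23 of 29 fell with DEX in hypoxia (10.8% of all genes did) and Vcam1 and Rela were called lower for the interaction, and 0.47 in the summed fit. It was -0.43 without Hypoxia_DEX-2 alone. For chemokines the median was 0.56, -0.12 in the 10-library fit and 0.63 in the summed fit, and for 17 immediate early genes 0.41, -0.17 and 0.53. The sign of all 3 medians turned without Hypoxia_DEX-2 and Hypoxia_PBS-1. Interferon-gamma GTPases and antigen presentation genes had a median of 0.04 with 0 of 26 called by either tool (1 at an unadjusted p under 0.05), and in the 10-library fit -0.13, with Gbp6, Irgm1, Tgtp1 and Igtp called lower. In that fit 3.73% of all genes were called for the interaction.

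**Figure D4:**
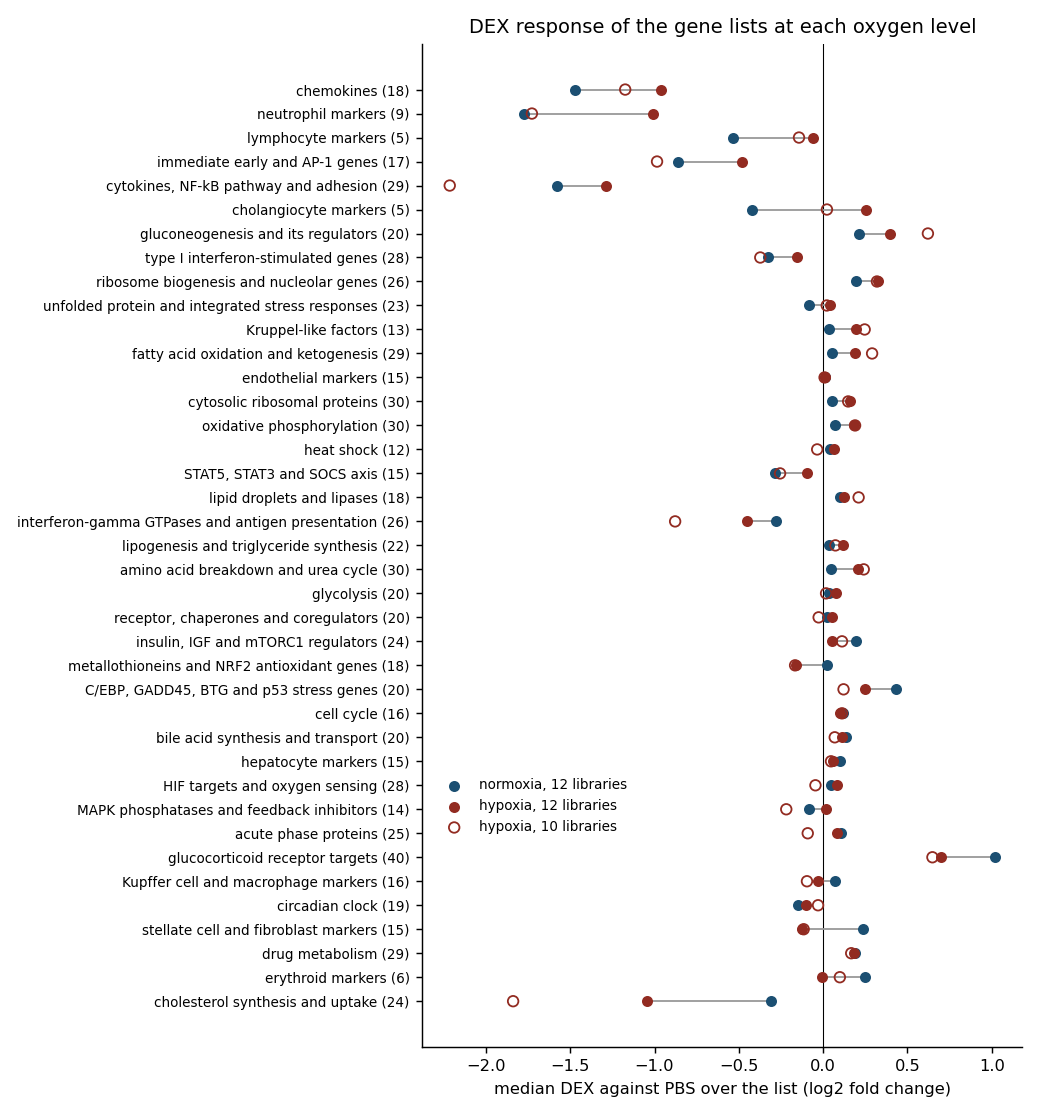
Median DEX against PBS (log2 fold change, edgeR) over each list with at least 5 tested genes (number tested in brackets), in normoxia and hypoxia; open circles are the hypoxia medians without Hypoxia_DEX-2 and Hypoxia_PBS-1, and lists are ordered by their median interaction. The receptor targets lie at 1.02 and 0.70, the cytokine list at -1.58 and -1.29 with its open circle at -2.21, and the cholesterol list at -0.31 and -1.04 with its open circle at -1.84.

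In whole liver, fewer cells of a type and less RNA per cell cannot be told apart. Hepatocyte markers were at the highest level, with summed CPM of 140404 to 178905 over the libraries, and 0 of 15 were called (0 by DESeq2 too, with 4 at an unadjusted edgeR p under 0.05). The 10-library fit, where 3.73% of all genes were called, called Trf of this list, lower (-0.70). Of 14 pancreatic acinar genes 12 had no counts in each group. Neutrophil markers moved along with the inflammatory genes: summed over the list they had 35.5 to 58.5 CPM in Normoxia_PBS, 12.9 to 21.97 in Normoxia_DEX, 30.7 to 113 in Hypoxia_PBS and 24.4 to 55.6 in Hypoxia_DEX, with 1 of 11 genes without counts in each DEX group, and their part in those results was not tested. Kupffer cell and macrophage markers were at 738 to 1074 CPM in the normoxia libraries and 302 to 390 in the hypoxia libraries, with 0 of 16 called (0 by DESeq2 too, with 3 at an unadjusted edgeR p under 0.05). Of these markers the 10-library fit called Lyz2, lower (-0.83). Endothelial markers had 2 of 15 called, and the 10-library fit added Vwf, lower (-0.93). Lyve1, a hyaluronan receptor of sinusoidal and lymphatic endothelium, had 11.2, 9.85 and 11.1 CPM in Normoxia_PBS, 52.2, 65.1 and 49.8 in Normoxia_DEX, 20.8, 24.01 and 26.8 in Hypoxia_PBS and 55.4, 51.8 and 51.5 in Hypoxia_DEX. The DEX groups overlapped and Hypoxia_PBS was above Normoxia_PBS, a weaker rise in hypoxia (interaction -1.23, SE 0.16, edgeR adjusted p = 0.00237, -1.31 in the 10-library fit and -1.24 in the summed fit). Lyve1 was called in all 20 alternatives, with an edgeR or DESeq2 adjusted p of 5.24e-08 to 0.0135. Kdr, the main VEGF receptor, fell with DEX at both levels, with 85.1, 78.7 and 73.7, 34.2, 39.7 and 35.1, 52.3, 41.7 and 42.6 and 31.0, 32.9 and 33.2 CPM (interaction 0.63, SE 0.13, edgeR adjusted p = 0.0403, 0.73 in the 10-library fit and 0.64 in the summed fit). Kdr was called in 9 of 20 alternatives, with an edgeR or DESeq2 adjusted p of 0.00515 to 0.112. Kdr lost the call without any one of Hypoxia_DEX 1, 2 and 3, Hypoxia_PBS 2 and 3, Normoxia_DEX 1 and 3, Normoxia_PBS 1 and 2, and in the summed fit. Summed over the endothelial list the levels were 717 to 768 CPM in Normoxia_PBS, 763 to 840 in Normoxia_DEX, 581 to 612 in Hypoxia_PBS and 631 to 647 in Hypoxia_DEX. The part of cell numbers in the Lyve1 and Kdr values was not tested.

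**Figure D5:**
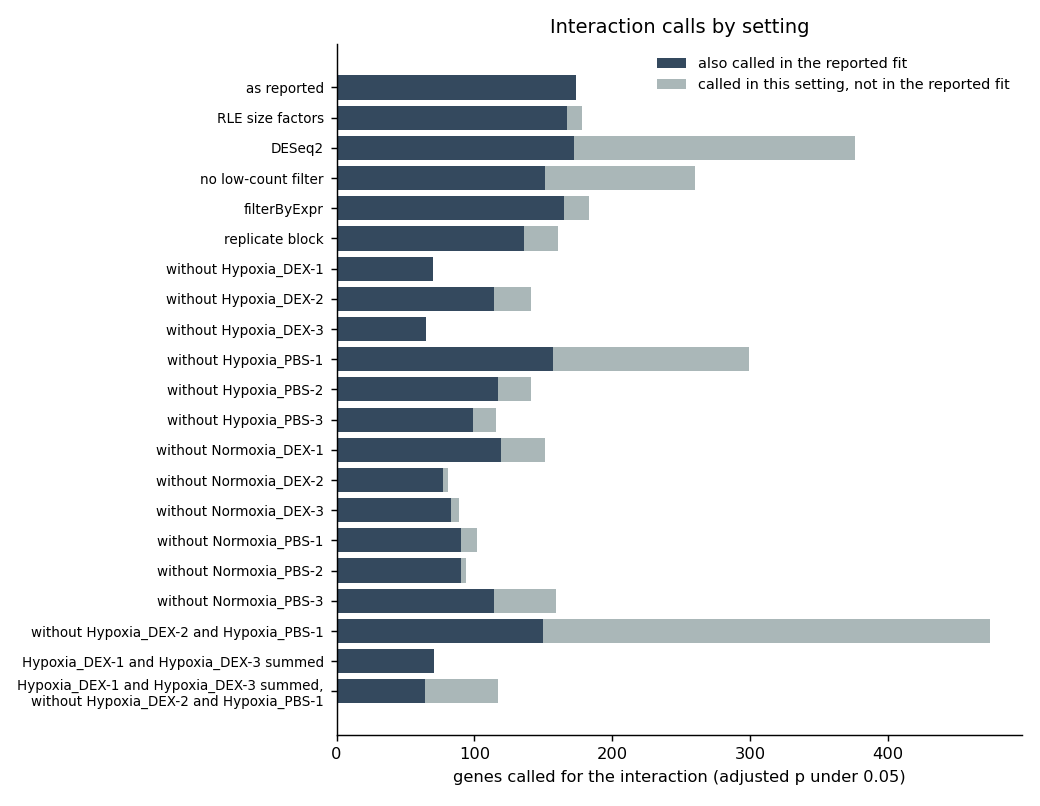
Number of genes called for the interaction (horizontal axis) in the reported fit and in each alternative setting; the dark bar counts genes also called in the reported fit, the light bar those not called there. Leaving out Hypoxia_DEX-3 gave the fewest, 65, and leaving out Hypoxia_DEX-2 with Hypoxia_PBS-1 the most, 474.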

How the data were processed

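Liver RNA was extracted on Bio-Rad columns and sequenced as stranded Illumina mRNA libraries, per the labels' protocols. The authors deposited raw counts per gene for all 12 libraries, with no normalization. The tools are named per the submitters' processing notes as Trimmomatic, HISAT2 2.0.4, SAMtools, featureCounts and DESeq2, and the build as mm10. The annotation counted on, and whether strand was used, is not given in the sources used here. The treatment protocol names both oxygen arms "hypoxia group", and the groups were taken from the sample descriptions and treatment labels.

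Genes with at least 1 CPM in at least 3 libraries (12801 of 54838) were scaled by TMM and fitted with 1 mean per group over all 12 libraries (8 residual degrees of freedom) by edgeR 4.0.16 in R 4.3.3 with limma 3.58.1, using glmQLFit with robust estimates and glmQLFTest, with Benjamini-Hochberg adjustment over all tested genes and a threshold of 0.05. CPM values were scaled by TMM library sizes. Log2 changes are fitted values, folds and ratios of DEX to PBS are ratios of group mean CPM, and SE is the log2 change over the root of the F statistic. Named genes were, per shape, the 5 called genes with the largest absolute interaction among those with a mean of 5 CPM or more in at least 1 group (clone names, Mup and immunoglobulin genes left out), up to 2 called genes per list by the same measure, and a fixed set of textbook targets, of which 1 gene did not enter the fit and is not analysed here. A few genes that met the rule are not reported here. Members and lists were chosen with earlier results of these data known. Symbols came from a table of gene names for 54723 identifiers, positions from GENCODE M21 (12793 of 12801 matched) and promoters from RefSeq.

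Alternatives were DESeq2 1.42.0, RLE size factors, no filter on low counts, filterByExpr, a replicate block and the omission of each library, and, chosen from earlier results of these data, the omission of Hypoxia_DEX-2 with Hypoxia_PBS-1, the sum of Hypoxia_DEX-1 with Hypoxia_DEX-3, and both. Tested on simulated counts for the interaction (12576 genes, 200 changed), the fit recovered 10.4% of 67 genes changed 1.5-fold, 61.2% of 67 changed 2-fold and 95.5% of 66 changed 4-fold, with 4 false calls among 115. The simulated libraries were drawn independently of each other, with changes in Hypoxia_DEX only. They held no close pair like Hypoxia_DEX-1 and Hypoxia_DEX-3 and no library set apart from its group. These rates therefore need not hold for the real libraries. Figures were drawn with matplotlib 3.10.9.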

Additional observations from a re-analysis of the deposited data

Results flagged for a closer look

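The genes below are named in the report. Their DEX responses at the 2 oxygen levels differed by the interaction test itself (edgeR, adjusted p under 0.05), with the difference on the log2 scale in brackets. The response was higher in hypoxia, most of all, for Fbf1 (4.01), Efna1 (2.86), Osgin1 (2.45), Klf10 (1.99), Plk3 (1.80), Mnt (1.57) and Socs3 (1.57). It was also higher for Egr1 (1.56), Pdp2 (1.47), Ddit3 (1.45), Bhlhe40 (1.28), Midn (1.16) and Acacb (1.14). It was also higher for Nup107 (0.97), Nr3c2 (0.95), Crtc2 (0.67), Kdr (0.63) and Hspe1 (0.45). It was lower in hypoxia by the widest margins for Hspa1a (-3.02, in the fit only through Normoxia_DEX), Treh (-2.49), Ddit4 (-2.40), Fam89a (-2.32), Tcim (-2.13), Thrsp (-1.998), Sgk1 (-1.56) and Exph5 (-1.48). It was also lower for Map3k13 (-1.45), Slc22a7 (-1.39), Slc22a30 (-1.36), Rgs4 (-1.35), Fmo5 (-1.29), Bcl9 (-1.25), Lyve1 (-1.23) and F11 (-1.23). It was also lower for Ajuba (-1.23), Gadd45g (-1.22), Srxn1 (-0.89), Ep300 (-0.76), Cyp3a11 (-0.64) and Hlf (-0.61). Dixon's test for a library apart from its group needs at least 4 libraries per group and was not run.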

How the results depend on the processing

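For the interaction, DESeq2 called 121 genes higher and 255 lower, and no filter on low counts gave 85 higher, against 54 and 120. Without Hypoxia_DEX-2 and Hypoxia_PBS-1 there were 159 higher and 315 lower, and 1376 genes fell with DEX in hypoxia, against 883. With Hypoxia_DEX-1 and Hypoxia_DEX-3 summed there were 21 and 50, and 515 fell in hypoxia. With both changes, where the single Hypoxia_DEX library left borrows its spread from the other groups, 34 were higher and 623 rose in hypoxia, against 966. Leaving out 1 library gave 18 to 93 higher and 47 to 206 lower, fewest without Hypoxia_DEX-3 and most without Hypoxia_PBS-1. The DEX responses then ranged from 940 to 1357 up and 726 to 1334 down in normoxia and from 548 to 1219 up and 471 to 1223 down in hypoxia. Fewer libraries leave fewer degrees of freedom, and beyond that the cause was not tested. The replicate block called 161 genes, 136 of them among the 174. Same-numbered libraries did not deviate together throughout: over 18 such pairs the correlation of deviations ran from -0.297 to 0.580, with 7 over 0.1. Only 1 of 12 libraries correlated best with its own number in every other group at once. The highest values, 0.580 for Hypoxia_DEX-2 with Hypoxia_PBS-2 and 0.511 for Hypoxia_PBS-1 with Normoxia_PBS-1, were of same-numbered pairs. These values do not show whether the samples were paired. Among the named genes Fbf1, Efna1, Socs3, Kdr, Hlf, Hspe1 and Cyp3a11 lost the interaction call under the block. Fmo5, Egr1, Klf10, Ep300, Bcl9, Crtc2, Ddit4, Sgk1 and Bhlhe40 lost it in 1 alternative only, with both changes.

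Signs turned for 13 values, none of them called at an adjusted p under 0.05 as reported or where they turned. With 1 library left out the log2 DEX response in hypoxia was -0.11 to 0.00977 for Bhlhe40, -0.21 to 0.0403 for Efna1, -0.12 to 0.50 for Hspa1a, -0.18 to 0.0698 for Mnt, -0.11 to 0.0624 for Sgk1 and -0.24 to 0.0125 for Srxn1, and that in normoxia -0.0633 to 0.0878 for Bcl9. In hypoxia it also turned without Hypoxia_DEX-2 and Hypoxia_PBS-1 and with both changes, to 0.0426 and 0.0413 for Mnt, 0.0822 and 0.0853 for Srxn1, -0.25 and -0.24 for Fam89a and -0.15 and -0.15 for Hspa1a, and in the summed fit to 0.0501 for Sgk1. With 1 library left out the interaction was -0.56 to 0.18 for Angptl4, -0.16 to 0.26 for Mt2, -0.20 to 0.14 for Per1, -0.000645 to 0.65 for Tat and -0.21 to 0.38 for Zfp36. That of Mt2 was -0.30 without Hypoxia_DEX-2 and Hypoxia_PBS-1 and -0.30 with both changes, and that of Per1 -0.00777 with RLE size factors, -0.00511 with DESeq2, -0.00266 with no filter and -0.0228 with filterByExpr.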
